A study of Saccharomyces cerevisiae with 4 samples.

Results

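Ribosome biogenesis factors are the proteins that make, modify, cut and fold ribosomal RNA and assemble it with ribosomal proteins. The set described here is a fixed list of 56 reading frames of nucleolar assembly factors, found by their systematic names among the 6207 reading frames of the deposited table. From textbook roles, 25 of them were grouped as factors of the small ribosomal subunit, 23 as factors of the large subunit and 8 as factors of both. All 56 names had a row in the table and a gene symbol in the RefSeq gene table of the S288C assembly.

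The cells were budding yeast (Saccharomyces cerevisiae) of the BY4741 background carrying a wsc1 mutation. WSC1 codes for a sensor of cell wall stress in the plasma membrane, and the labels do not give the allele. Each culture was split at 24 °C, with Congo Red, a dye that disturbs the assembly of cell wall chitin and glucan, at 30 µg/ml in the treated portion, and both portions were collected at 4 h. RNA of the portions was hybridised together on 4 two-colour arrays, 2 for each of 2 cultures with the dyes swapped, so that Cy3 marked the Congo Red RNA on arrays 1 and 3 and Cy5 marked it on arrays 2 and 4. The treated and untreated cells carry the same mutation, so the values describe the mutant without a wild-type strain beside it. The WSC1 row held a value on 0 of the 4 arrays, as did 1171 of the 6207 reading frames, so this does not tell the allele. RNA came from whole cultures, so an equal change in every cell and a larger change in some of them cannot be told apart.

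Yeast transcribes the long precursor of its ribosomal RNAs in the nucleolus. Small nucleolar ribonucleoproteins guide its methylation and pseudouridylation, and the U3 particle joins the UtpA, UtpB and Mpp10 complexes on the nascent transcript to form the small-subunit processome. After the precursor is cut, the large-subunit portion passes through particles that helicases, GTPases and methyltransferases remodel on the way to export. Transcription of these genes is known to follow growth rate and to drop in many acute stresses, together with that of ribosomal protein genes.

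Each value is the authors' log ratio of 1 reading frame on 1 array, read here as the log2 ratio of Congo Red over untreated. Numerator and log base are not given in the sources used, so all directions are likely rather than settled. The basis is a list of genes that cell wall integrity signalling is known to induce: as deposited, 20 of 25 were above 0 on every array, against 0 of 25 after arrays 2 and 4 are turned. That list holds genes of the wall and of its signalling, and none of the biogenesis factors, so their sign had no part in this reading. It was chosen with earlier results of these data known, so it is not independent of the ratios whose direction it sets.

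How many factors could be described was set first by empty cells in the table. A value on all 4 arrays was present for 36 of the 56 factors (64.3%), against 49.6% of all reading frames. By subunit these were 13 of 25 small-subunit factors (52.0%), 16 of 23 large-subunit factors (69.6%) and 7 of 8 factors of both. Another 17 had values on 1 to 3 arrays, and 3 had none, namely DIP2, a UtpB subunit, NOP4, a large-subunit factor with RNA recognition motifs, and RRP5, which acts in both subunit pathways. Array 1 held values for 37 factors, array 2 for 39, array 3 for 48 and array 4 for 51. Small-subunit factors were emptiest in the UtpA and UtpB complexes, with 3 of 7 and 1 of 4 of the members on the fixed list measured on all arrays.

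**Figure D1:**
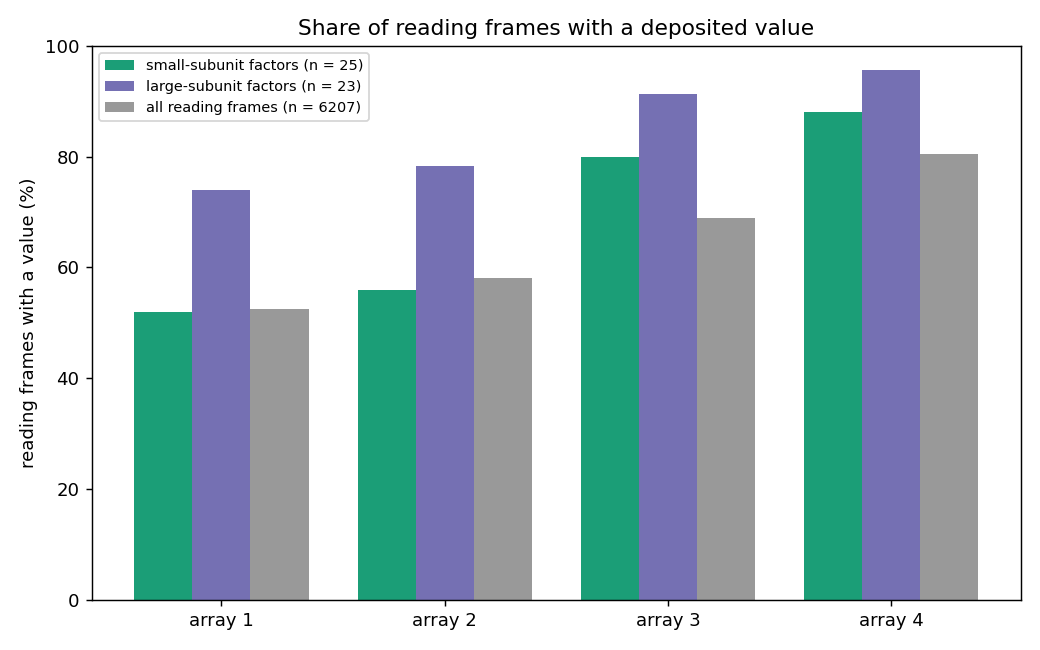
Share of small-subunit factors (n = 25), large-subunit factors (n = 23) and all 6207 reading frames with a deposited value on each array, in percent. Bars start at 0, and arrays 1 and 2 hold fewer values than arrays 3 and 4 in each group.

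Congo Red changed 0 of the 36 factors measured on all arrays, at a Benjamini-Hochberg adjusted p of 0.05 over all 3080 reading frames tested with limma on culture means. The same fit called 80 of the 3080 reading frames, or 2.60%, with 47 higher (1.53%) and 33 lower (1.07%). At an unadjusted p below 0.05 there were 4 factors, all above 0, against 26.2% of all reading frames, 7.79% above 0 and 18.4% below. A limma fit to the 4 arrays one by one, with a term for dye, called 1 factor, NUG1, where it called 10.4% of all reading frames. This fit takes the 4 arrays as independent although they come from 2 cultures, so its p-values can be too small. Mean log ratios of the 36 ran from -0.41 for HAS1 to 0.68 for BMS1, with 19 above 0 and 17 below. A mean of at least 0.3 was found for 4 factors (11.1%), against 8.73% of all tested reading frames, and a mean of at most -0.3 for 2 (5.56%), against 15.1%. The moderated SE ran from 0.09 to 0.20 (n = 2 cultures). A miss of the threshold does not show that a factor kept its level, so 95% intervals were taken from the limma fit for each of the 36. These intervals lay within 1 log unit of 0 on either side for 35 factors. The exception, BMS1, reached 1.17.

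**Figure D2:**
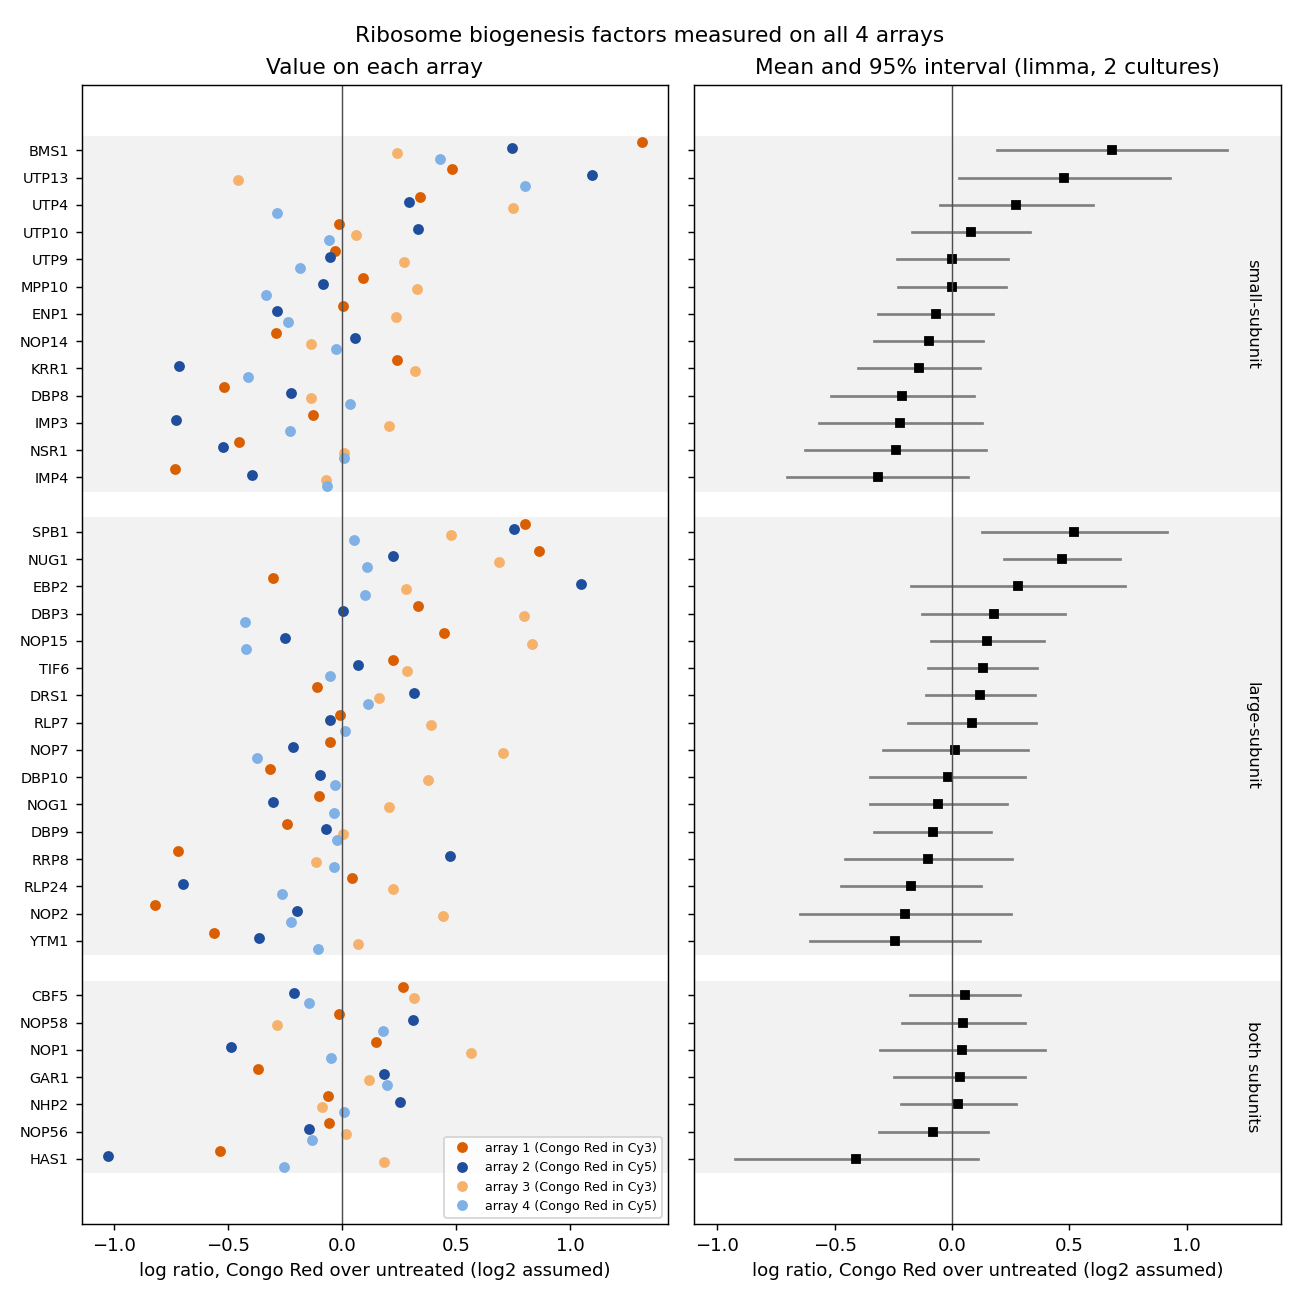
Left, the log ratio of each of the 36 factors on each of the 4 arrays, coloured by array and dye orientation. Right, the mean (square) and its 95% interval (line) from limma on 2 culture means, the wider of the 2 pairings. The means run from -0.41 to 0.68, and 4 intervals exclude 0 before any adjustment for multiple tests.

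Above 0 on every array were BMS1, SPB1 and NUG1, or 8.33% of the 36 factors, against 7.44% of all tested reading frames. This count depends on where 0 is set. Centring each array on the median of its tested values gave 5 factors (13.9%), with DRS1 and RLP7 added, against 12.2% of all, and centring on the median of all its values gave 8 (22.2%), against 14.8%. BMS1 (YPL217C) codes for a GTPase that the small-subunit processome needs, and its log ratios were 1.31, 0.74, 0.24 and 0.43 on arrays 1 to 4. The mean was 0.68 ± 0.18 (moderated SE, n = 2 cultures), which is 1.60-fold if the log base is 2, with a 95% interval from 0.19 to 1.17 and a limma adjusted p of 0.142. Values above 0 came in both dye orientations, and the size on array 1 was the largest of the 4. SPB1 (YCL054W), the gene of a methyltransferase of large-subunit rRNA, was at 0.80, 0.75, 0.48 and 0.05, with a mean of 0.52 ± 0.15 and a limma adjusted p of 0.150. NUG1 (YER006W) codes for a GTPase of nuclear large-subunit particles and was at 0.86, 0.22, 0.69 and 0.11. Its mean was 0.47 ± 0.09, the smallest unadjusted p of the 36 (0.00525 by limma) and an adjusted p of 0.0879. NUG1 stood higher on both arrays with Congo Red in Cy3 than on both with it in Cy5.

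The only factor below 0 on every array was IMP4 (YNL075W), or 2.78% of the 36, against 21.0% of all tested reading frames. It codes for a U3 protein of the Mpp10 complex and was at -0.74, -0.40, -0.07 and -0.07, with a mean of -0.32 ± 0.15 (limma adjusted p = 0.236). Its partners in that complex did not share this sign on every array. IMP3 was at -0.13, -0.73, 0.21 and -0.23 with a mean of -0.22 ± 0.13, and MPP10, the scaffold of the complex, was at 0.09, -0.09, 0.33 and -0.34. Array 3 was the highest for IMP3 and MPP10 alike.

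The UtpA complex binds the nascent precursor first. UTP4 (YDR324C), one of its propeller proteins, was at 0.34, 0.29, 0.75 and -0.29, with a mean of 0.27 ± 0.13 (limma adjusted p = 0.229). The helical-repeat subunit UTP10 was at -0.01, 0.33, 0.06 and -0.06 with a mean of 0.08. UTP9 was at -0.03, -0.05, 0.27 and -0.19 with a mean of 0.00033. All 3 had values on both sides of 0. From the UtpB complex UTP13 (YLR222C), another propeller protein, was the lone member on all arrays, at 0.48, 1.09, -0.46 and 0.80. Its mean was 0.48 ± 0.17 (limma adjusted p = 0.178). Array 3 carried the sole value below 0.

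Among the remaining small-subunit factors, NSR1, the yeast nucleolin, was at -0.45, -0.52, 0.01 and 0.01, with a mean of -0.24 ± 0.15 (limma adjusted p = 0.324). DBP8, a DEAD-box helicase gene, was at -0.52, -0.22, -0.14 and 0.03, with a mean of -0.21 ± 0.11 (limma adjusted p = 0.289). For both genes the lower values were on arrays 1 and 2. NOP14, a processome subunit, had a mean of -0.10, and ENP1, which stays with the precursor of the small subunit until export, one of -0.07. KRR1, coding for a KH-domain protein of the processome, had a mean of -0.14 made of 0.24, -0.71, 0.32 and -0.41, so its sign followed the dye.

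Of 6 helicase genes of the large-subunit pathway 4 were measured on all arrays, with means from -0.08 to 0.18. DBP3, which acts in cutting the first internal spacer, was at 0.33, 0.01, 0.80 and -0.43 with a mean of 0.18 ± 0.12. DRS1 was at -0.11, 0.32, 0.16 and 0.11 (mean 0.12) and DBP10 at -0.32, -0.10, 0.37 and -0.03 (mean -0.02). DBP9 had a mean of -0.08, with its lowest value, -0.24, on array 1. On array 3 all 4 of these helicases lay above 0, and on array 4 DRS1 alone did.

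In the PeBoW complex of large-subunit assembly, NOP7 was at -0.05, -0.22, 0.70 and -0.38 and YTM1 at -0.56, -0.37, 0.07 and -0.11. ERB1 had no value on array 2 and was at 0.46, 0.16 and -0.09 on arrays 1, 3 and 4. YTM1 had the lowest mean of the large-subunit factors measured on all arrays, at -0.24 ± 0.14, not past the threshold. NOP7 had a mean of 0.01. Array 3 was the highest for NOP7 and YTM1 and array 1 for ERB1.

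Methyltransferase genes of large-subunit rRNA did not move together. Beside SPB1, NOP2 was at -0.82, -0.20, 0.44 and -0.22 (mean -0.20 ± 0.17) and RRP8 at -0.72, 0.47, -0.12 and -0.04 (mean -0.10 ± 0.14). Each of these 2 genes thus spanned more than 1 log unit over the 4 arrays. Of the GTPases beside NUG1, NOG1 was at -0.10, -0.30, 0.20 and -0.04, with a mean of -0.06.

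EBP2, which acts early in large-subunit assembly, had the next highest mean after NUG1, at 0.28 ± 0.18 (limma adjusted p = 0.340), from -0.30, 1.04, 0.28 and 0.10. Array 2 alone lay far above 0. NOP15, an RNA-binding factor of the second internal spacer, was at 0.44, -0.25, 0.83 and -0.42, again with a sign that followed the dye. TIF6, which keeps the subunits from joining too early, was at 0.22, 0.07, 0.29 and -0.05. RLP24, a relative and placeholder of a ribosomal protein, was at 0.04, -0.70, 0.22 and -0.26. RLP7, another relative of a ribosomal protein, was at -0.01, -0.05, 0.39 and 0.01. Of these 3, RLP24 followed the dye in sign, with the low values where Congo Red was in Cy5.

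Core proteins of the modification guides lay close to 0 in the mean. In the box C/D particles, which methylate ribose, NOP1 (fibrillarin) had a mean of 0.04, NOP58 of 0.05 and NOP56 of -0.08. In the box H/ACA particles, which make pseudouridine, the catalytic subunit CBF5 had a mean of 0.06, NHP2 of 0.03 and GAR1 of 0.03. CBF5 was at 0.26, -0.21, 0.31 and -0.14, whereas NOP58, of the other particle, was at -0.01, 0.31, -0.28 and 0.18, so the signs of these genes followed the dye in opposite ways. A mean near 0 did not always come from values near 0, as NOP1 was at 0.15, -0.49, 0.56 and -0.05. HAS1 (YMR290C), a helicase gene of both pathways, had the lowest mean of the 36 factors, at -0.41 ± 0.20 (limma adjusted p = 0.251), from -0.53, -1.03, 0.18 and -0.25. Array 3 was again the one above 0.

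Among factors measured on all arrays (13 of 25 small-subunit, 16 of 23 large-subunit), the groups did not differ in the same direction on every array. Partly measured factors are left out of this comparison. Their medians were -0.18 (small-subunit) and 0.13 (large-subunit) on array 3, and -0.21 and -0.20 on array 4. The median of the mean log ratios was -0.07 for the 13 small-subunit factors and 0.05 for the 16 large-subunit factors, beside 0.01 for all 36 and -0.10 for all tested reading frames. The sign of the small-subunit median depends on where 0 is set, as it was 0.02 after each array was centred on its median of tested values. The large-subunit median was -0.08 in the fit with a dye term and without array 3. On arrays 1 to 4 the small-subunit medians were -0.01, -0.09, 0.21 and -0.07. Those of large-subunit factors were -0.08, -0.06, 0.33 and -0.04. By medians, small-subunit factors were thus higher on array 1 and lower on arrays 2, 3 and 4. Means gave another sign on array 4. There 9 of the 13 small-subunit factors lay below 0, but BMS1 and UTP13 were at 0.43 and 0.80. The mean of small-subunit factors minus that of large-subunit factors was 0.06 on array 1, -0.08 on array 2, -0.24 on array 3 and 0.06 on array 4. Its average was -0.05 with an SD over the 4 arrays of 0.14. This difference of means was thus smaller than the spread between arrays and changed sign among them. In the fit with a dye term and without array 3, which gives both dye orientations equal weight, the difference was 0.02. The genes are not replicates of a condition, so no test was run on this difference.

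Array 3 differed from the others for these genes. The median of the 36 factors was 0.23 on array 3 and -0.04, -0.08 and -0.05 on arrays 1, 2 and 4. On array 3, 29 of the 36 lay above the median of all tested reading frames, among them 15 of 16 large-subunit factors and 9 of 13 small-subunit factors. On arrays 1, 2 and 4 the counts were 23, 20 and 17 of 36. Of the related lists, other large-subunit factors also stood high on array 3, with a median of 0.26 and 25 of 29 above the median of all. Exosome genes had a median of 0.24 there. The other lists did not stand as high. Medians were -0.14 for other small-subunit factors (4 of 9 above the median of all), -0.00030 for RNA polymerase I subunits (2 of 4) and -0.10 for regulators (3 of 6). The average over arrays therefore rests in part on array 3. In the fit with a dye term and without array 3, the median of the 36 was -0.08. Limma on the 3 arrays without array 3, with a dye term and arrays taken as independent, called 9 of the 36 factors (25.0%). That was close to the 26.7% of all reading frames that this fit called. BMS1, SPB1, NUG1 and UTP13 were the higher ones, and HAS1, NOP2, IMP4, YTM1 and NSR1 the lower ones. Taking arrays 1 and 4 as a culture, one of the 2 possible pairings, called 6 factors (16.7%), against 25.6% of all. Without array 1 the fit with a dye term called 3, namely BMS1, SPB1 and NUG1, against 12.2% of all, and without array 2 or array 4 it called 0 (against 0.422% and 0.812% of all).

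**Figure D3:**
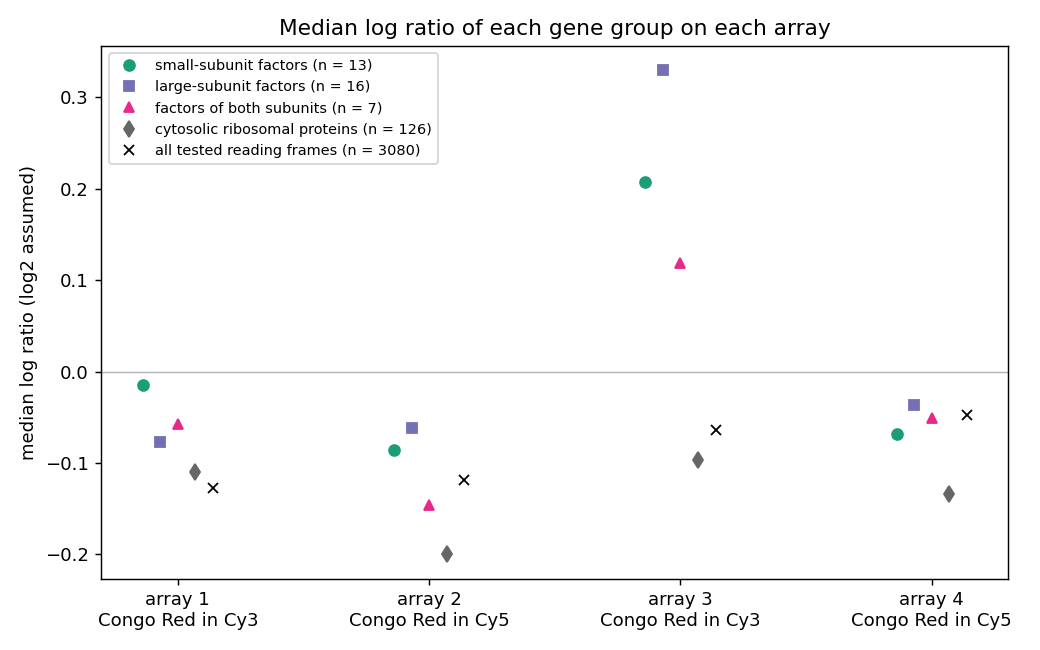
Median log ratio on each array for small-subunit factors, large-subunit factors, factors of both subunits, cytosolic ribosomal proteins and all tested reading frames. Points of one array are set side by side; on array 3 the medians of the small-subunit and large-subunit factors, 0.21 and 0.33, lie above 0 while the median of all reading frames, -0.06, lies below.

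Part of many ratios followed the dye. The dye part of a factor is the mean of its 4 values once the signs of arrays 2 and 4 are turned, so it is above 0 where the arrays with Congo Red in Cy3 read higher. It was larger in size than the mean log ratio for 20 of the 36 factors (55.6%), against 48.5% of all tested reading frames. Limma on 4 arrays called the dye effect of 3 factors (8.33%), all above 0, against 16.0% of all reading frames in either direction, 8.15% above 0 and 7.86% below. These were NOP15 at 0.49 ± 0.09 (adjusted p = 0.0297), KRR1 at 0.42 ± 0.08 (adjusted p = 0.0312) and NUG1 at 0.31 ± 0.07 (adjusted p = 0.0499). NUG1 was therefore called for the dye and, in the same limma fit, for Congo Red (adjusted p = 0.0235). Both calls come from arrays taken as independent, not from culture means. After centring each array on its median, the dye effect of NOP15 and KRR1 was called and that of NUG1 was not. With 1 array left out, the dye effect of 8 factors was called without array 1 and of 5 without array 3, where 661 and 660 of the 3080 reading frames were called. It was called for 0 factors without array 2 or array 4, where 0 and 1 of all reading frames were called. Values above 0 on arrays 1 and 3 and below 0 on arrays 2 and 4 were found for 7 factors (19.4%), against 16.4% of all reading frames. The opposite pattern was found for 2 (5.56%), against 12.3%. If the deposited ratios had not been turned by dye, these 9 would be the factors with a single sign, and with arrays 2 and 4 turned limma on culture means called 0 of the 36 and 0 of all 3080, with 7 and 857 at an unadjusted p below 0.05.

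**Figure D4:**
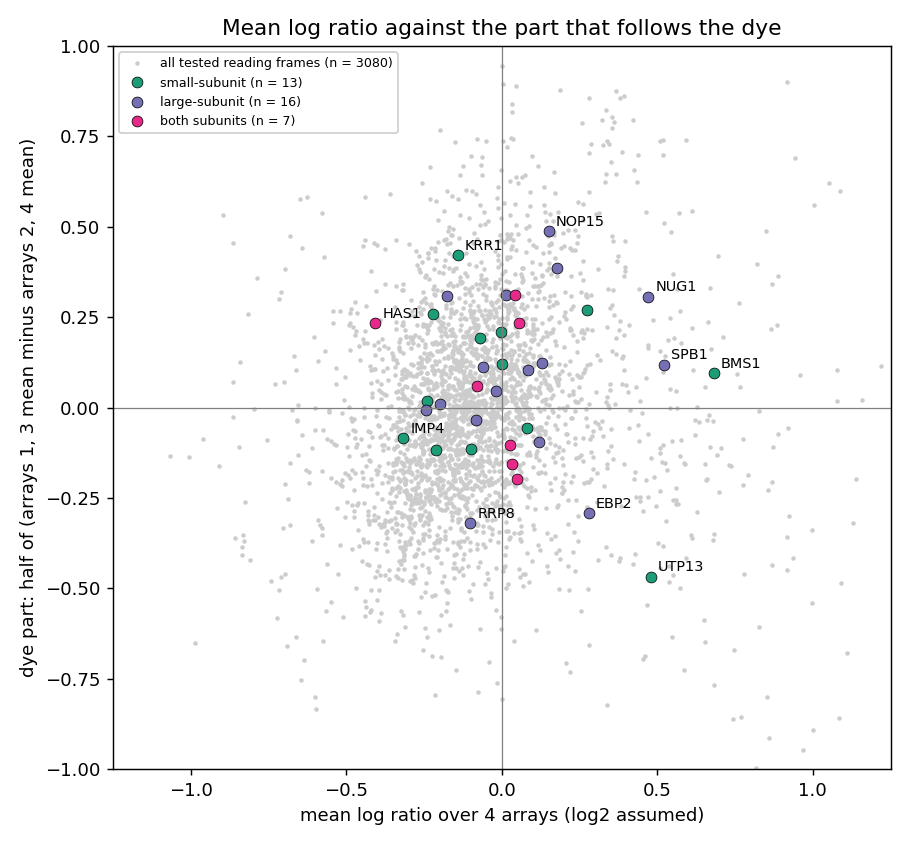
Mean log ratio over the 4 arrays (x axis) against the dye part, the same mean once the signs of arrays 2 and 4 are turned (y axis), for the 36 factors and for all 3080 tested reading frames, of which 29 lie outside the axes. KRR1 and NOP15 lie high, with means of -0.14 and 0.15, and BMS1 and SPB1 lie to the right with a small dye part.

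Agreement between arrays over the 36 factors was described by correlation, with no test, since the genes share the arrays and their labelling. Pearson's r was 0.67 (Spearman's rho 0.58) between arrays 2 and 4 and 0.39 (rho 0.50) between arrays 1 and 3, the pairs of one dye orientation. Over all 3080 reading frames the same pairs had r of 0.71 and 0.64. Of the pairs of opposite orientation, arrays 1 and 2 had r of 0.38 (rho 0.29) over the factors. Arrays 1 and 4 had r of 0.21 but rho of -0.07, and arrays 2 and 3 had r of -0.17 (rho -0.10). Between arrays 3 and 4 r was -0.58 (rho -0.47) over the factors and -0.05 over all reading frames. Factors that stood high on array 3 thus tended to stand low on array 4.

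The 17 factors with values on 1 to 3 arrays leaned lower than those measured on all 4. The mean of the available values was below 0 for 15 of the 17 (88.2%), against 17 of 36 (47.2%) for factors measured on all arrays. Among all reading frames these shares were 80.1% and 67.2%. ROK1, a small-subunit helicase gene, had the lowest mean, from a single value of -0.68 on array 3, and UTP15, of the UtpA complex, was at -0.75 and -0.19 on arrays 3 and 4. SOF1, linked to the U3 particle, was at -0.66 and -0.21 on those arrays, and SPB4, a large-subunit helicase gene, at -0.05, -0.67 and -0.16 on arrays 2, 3 and 4. All of these available values were below 0.

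Of the other partly measured UtpA genes, NAN1 was at -0.40, UTP5 at -0.26 and UTP8 at -0.0027, each on 1 array. In the UtpB complex PWP2 was at -0.51, -0.18 and -0.07 on arrays 2, 3 and 4, and UTP6 at 0.26 and -0.56 on arrays 3 and 4. RRP9, a U3 protein, was at -0.14 and -0.25 on arrays 3 and 4, and UTP7, a processome propeller protein, at -0.15 on array 4. UTP6 was the one of these genes with values on both sides of 0.

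On the large-subunit side SDA1, needed late in nuclear assembly, was at -0.45 and -0.24 on arrays 3 and 4, and DBP7, a helicase gene, at -0.31 on array 4. NOG2, coding for a GTPase of nuclear particles, was at -0.55, 0.13 and -0.13 on arrays 2, 3 and 4, and NOP12, an RNA-binding factor, at 0.19 and -0.30 on arrays 3 and 4. NOG2 and NOP12 were above 0 on array 3 alone. Above 0 in the mean were ERB1 and RCL1, a processome protein that binds Bms1, with 0.19 on array 4. On array 3, where they can be set against the others directly, the 7 small-subunit factors of this kind had a median of -0.18, and the 13 measured on all arrays one of 0.21. On array 4 the 9 with a value had a median of -0.21 against -0.07. The 5 partly measured large-subunit factors with a value on array 3 had a median of 0.13 there, with 2 of 5 below 0, against 0.33 for those measured on all arrays. Over all reading frames the medians of partly and fully measured ones were -0.25 and -0.06 on array 3 and -0.13 and -0.05 on array 4. None of these factors was tested, and the signal strength behind the empty cells was not analysed here.

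Other genes of the pathway were taken from 5 lists of 115 genes in all. Of 9 tested other small-subunit factors 0 were called, with a median of -0.19. The largest in size were EMG1, a methyltransferase gene, at -0.25, and UTP23 at -0.24. Of 29 tested other large-subunit factors 1 rose and 0 fell, with a median of -0.07. The one that rose was PUF6 (YDR496C), a Pumilio-family protein of large-subunit assembly that also represses translation of ASH1 mRNA. It was at 0.96, 0.98, 1.20 and 0.32 on arrays 1 to 4, all above 0, with array 4 the lowest. Its mean was 0.87 ± 0.12 (limma adjusted p = 0.0382), or 1.82-fold if the log base is 2. PUF6 was not called after centring each array on its median (adjusted p = 0.0947). In the 4-array limma fit with a term for dye PUF6 was called (adjusted p = 0.0193). The same fit without array 2 (dye-adjusted estimate 0.70, adjusted p = 0.126) or without array 4 (1.03, adjusted p = 0.0592) did not call it. Nor did the 4-array fit with no term for dye (adjusted p = 0.0796). A dye-adjusted estimate gives both dye orientations equal weight, so it is not the plain mean of the arrays left.

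RNA polymerase I makes the precursor itself, and 0 of its 4 tested subunits were called, with RPA14 at -0.17 and RPC40 at -0.16. Of 7 tested exosome genes, which trim and degrade precursors, 0 were called, with a median of -0.06. The nuclear exonuclease gene RRP6 was at -0.94, -0.08, -0.48 and -0.15, with a mean of -0.41 ± 0.10 (limma adjusted p = 0.116), and RRP40 had a mean of -0.20. Of 6 tested regulators of these genes 0 were called, with a median of -0.20. STB3, coding for a repressor that binds promoters of biogenesis genes, had a mean of -0.32, and FHL1, a factor of ribosomal protein genes, one of -0.26. RRP7, a small-subunit factor chosen after its values were seen, had the largest dye part in size among the tested genes of these 5 lists, with 0.83, -0.71, 0.72 and -0.72 and a mean of 0.03 ± 0.09.

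The ribosomal proteins that these factors assemble lay in a narrower range. Of 126 tested cytosolic ribosomal protein genes 0 were called, the means ran from -0.31 to 0.17, and the median was -0.14. Below 0 on all 4 arrays were 59 of them (46.8%), against 1 of the 36 biogenesis factors and 21.0% of all tested reading frames. The SD of the means was 0.09 over ribosomal protein genes, 0.24 over the biogenesis factors and 0.32 over all tested reading frames. No test was run of this difference between the gene groups. These signs depend on where 0 is set. Centring each array on the median of all its values moved the median of all tested reading frames by 0.12, and then 9 of the 126 (7.14%) and 0 of the 36 lay below 0 on all arrays, against 8.51% of all tested reading frames. Centring on the medians of the tested values left 17 of the 126 (13.5%) and 1 of the 36, IMP4, against 11.4% of all. Relative to the median of all tested reading frames, the medians were 0.11 for the biogenesis factors and -0.04 for ribosomal protein genes.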

How the data were processed

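RNA of Congo Red and untreated portions was compared on 4 two-colour arrays. The deposited table holds the authors' log2 ratios, 1 per reading frame and array (log2 is a reading; numerator, normalization, background correction and the rule for empty cells: not given in the sources used here). Of its rows 2 name control spots and were left out, and 5654 of 6207 reading frames matched the RefSeq S288C gene table. Values were used as deposited. The 3080 reading frames with values on all 4 arrays were tested with limma 3.58.1 in R 4.3.3 (lmFit and eBayes, intercept only) on the means of 2 cultures. The labels do not tie arrays to cultures, so both pairings that give each culture both dyes were fitted and the larger p, SE and interval kept. P-values are two-sided and were Benjamini-Hochberg adjusted over all 3080, with a threshold of 0.05. Two-colour arrays carry no counts; the number of arrays and cultures limits the precision, and limma shrinks each SE toward that of all genes. The dye effect was fitted on 4 arrays with a dye term. Fits on single arrays took the arrays as independent, though they came from 2 cultures, so their p-values can be too small. The fits were tested on simulated data. Members, lists and tests were chosen with earlier results of these data known. Named in full were the 6 highest and 6 lowest factors and those with a called dye effect; other factors are given by complex. Of each other list, called genes or the 2 largest in size were named. Alternatives were centring, scaling, the fit, each pairing, values on at least 3 arrays, turned arrays and each array left out. Promoter motifs were planned and are not analysed here.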

Additional observations from a re-analysis of the deposited data

Results flagged for a closer look

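Over 40 sets of 4 array values (36 factors and 4 group summaries), 4 had an array far from the other 3 by Dixon's ratio. Chance flags about 1 in 20 such sets. Of the 36 factors 2 were flagged, which is near that rate. The rest were medians of the same genes, both set apart by array 3, so the 40 sets are not independent. No such count was made over all reading frames. The median of the 36 factors was 0.23 on array 3 and between -0.08 and -0.04 on the others. The median of the large-subunit factors was 0.33 on array 3 and between -0.08 and -0.04 on the others. RLP7, a large-subunit factor, was at 0.39 on array 3 and between -0.05 and 0.01 on the others. GAR1, of the box H/ACA particles, was at -0.37 on array 1 and between 0.12 and 0.19 on the others.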

How the results depend on the processing

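No paired analysis was possible because the arrays form 1 group, with no replicate numbers shared between groups; treated and untreated RNA are already paired within each array. The count of called reading frames moved from 80 to 4 after centring on medians of tested values, 32 after centring on medians of all values (chosen after seeing the data), 125 after scaling, 320 on 4 arrays with a dye term, 36 without one, 787 with arrays 1 and 4 as a culture, 214 with values on at least 3 arrays and 0 with arrays 2 and 4 turned. The split of higher to lower was 47 to 33, then 4 to 0 and 30 to 2 under the centrings and 61 to 64 after scaling. It was 121 to 199 with a dye term, 28 to 8 without one, 255 to 532 with arrays 1 and 4 as a culture and 95 to 119 with values on at least 3 arrays. Leaving out 1 array used the fit with a dye term, so its counts, from 13 to 823 (263 to 560 without array 3), stand against 320. The count of called biogenesis factors was 0 after centring, after scaling, without a dye term, with arrays 1 and 2 as a culture and with arrays turned. It was 1 (NUG1) with a dye term and 1 with values on at least 3 arrays, and 6 (BMS1, SPB1, NUG1, UTP13, HAS1 and IMP4) with arrays 1 and 4 as a culture, a pairing that called 25.6% of all reading frames. With 1 array left out it ran from 0 to 9, against 1 in the like fit of 4 arrays. The count of dye effects over all reading frames, 493, ran from 0 to 661 with 1 array left out (these alternatives were added later). The cause of these moves was not tested. The small-subunit median was 0.095 with arrays turned. Turning also swapped the sign of 8 named genes, which gave 0.23 for HAS1, 0.017 for NSR1, 0.26 for IMP3, -0.29 for EBP2, -0.47 for UTP13, 0.42 for KRR1, 0.10 for RPC40 and 0.064 for FHL1. No other alternative swapped the sign of any of the 23 named genes.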

Other observations

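Gene order in the RefSeq table put 5 pairs of biogenesis genes side by side that hold at least 1 of the 56 factors. Both genes of a pair were measured on all arrays in 2 of them. DBP8 and its neighbour NMD3, an export adaptor of the large subunit, had means of -0.21 and -0.26. UTP13 and its neighbour RSA3, another large-subunit factor, had means of 0.48 and -0.20.

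The 2 control rows left out of the tests also held log ratios. The row named 3XSSC, after a buffer, was at 0.30, 0.49, 0.10 and 0.18 on arrays 1 to 4. The row named Arabidopsis was at 0.67, -0.27, 0.16 and 0.01.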
